A study of Mus musculus with 10 samples.

Results

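G protein-coupled receptors (GPCRs) carry signals from outside the cell to heterotrimeric G proteins inside it. Adgre5, Adgrg1, Fshr and Vipr2 encode 4 of them, and each lies at chromatin listed as differing in histone H3K27 acetylation (H3K27ac) between populations of brain macrophages. Regions were taken if the midpoint lay inside one of these genes, or if one of them was the protein-coding gene with the nearest end, at most 100 kb away. This gave 14 of the 1320 deposited regions, 12 of 428 in the list named MDM and 2 of 892 in the list named YSM. The 4 genes were chosen by the regions deposited for them after the authors' comparison of MDM with YSM. Their presence in the lists is therefore a description, and no test is attached to it.

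The regions come from CUT&Tag, in which an antibody tethers a transposase to a chromatin mark, on parenchymal macrophages sorted from mouse brain. H3K27ac marks active promoters and enhancers. There were 4 MDM and 4 YSM libraries for this mark, all labelled with genotype Ms4a3Cre:R26-tdTomato and treatment DR-3x. The labels explain neither DR-3x nor YSM, and give no age or sex. The series title uses MDM for monocyte-derived macrophages. In such mice Cre under Ms4a3 control switches on a red reporter in granulocyte-monocyte progenitors, and their descendants keep it. The reporter records that history and not the state of the macrophage at sorting.

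The lists name regions and give no level, fold or p-value for a library, so no error between libraries can be stated and the depth is unknown. The sources used here do not say whether the 4 libraries of a group are separate animals. Nor do the files state a direction, and the MDM list is taken here to hold regions with more H3K27ac in MDM, the YSM list those with more in YSM. Every region is 2001 bp long. The sorted cells could not be checked by their markers, because the lists hold only regions that differed. Of 15 macrophage and microglia markers 0 had MDM regions and 1, Sall1, had YSM regions (6.67%). Of 21 markers of other brain or blood cells 0 had MDM regions and 3 had YSM regions (14.3%), Snap25 of neurons and Mbp and Mog of oligodendrocytes. The share of all 21887 protein-coding genes was 1.06% for MDM and 2.16% for YSM regions, so that markers of neurons and oligodendrocytes stood above the share of all genes in the YSM list. Their part in the YSM regions at Adgrg1 was not tested.

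As background, the 4 receptors belong to 3 families. Adgre5 (CD97) and Adgrg1 (GPR56) are adhesion GPCRs, with a long extracellular part that is cut from the membrane-spanning part at a conserved site and stays attached to it. CD97 is found on leukocytes and binds CD55. GPR56 binds collagen III and transglutaminase 2, signals through G12/13 to RhoA, and is counted among the genes of resident microglia. Vipr2 encodes VPAC2, a secretin-family receptor for vasoactive intestinal peptide and PACAP. Fshr encodes the follicle-stimulating hormone receptor, a leucine-rich repeat receptor known from the gonads. VPAC2 and the follicle-stimulating hormone receptor both raise cyclic AMP.

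The receptors fell on opposite sides of the MDM and YSM lists. Adgre5 had 3 MDM regions, Fshr 6 and Vipr2 3, with 0 YSM regions at any of the 3. Adgrg1 had 2 YSM regions and 0 MDM regions. Only 5 protein-coding genes had regions of both lists, beside 232 with MDM and 472 with YSM regions. Absence from the other list was therefore usual for a listed gene. Of all protein-coding genes, 1.06% had an MDM region by the same assignment and 2.16% had a YSM region. Since listing chose the genes, nothing is read from their share. Regions of 1 list at most 5 kb apart were joined into groups, because neighbouring regions overlap and are not independent. Counted this way the 14 regions formed 6 groups, 3 at Fshr and 1 at each of the other genes.

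**Figure D1:**
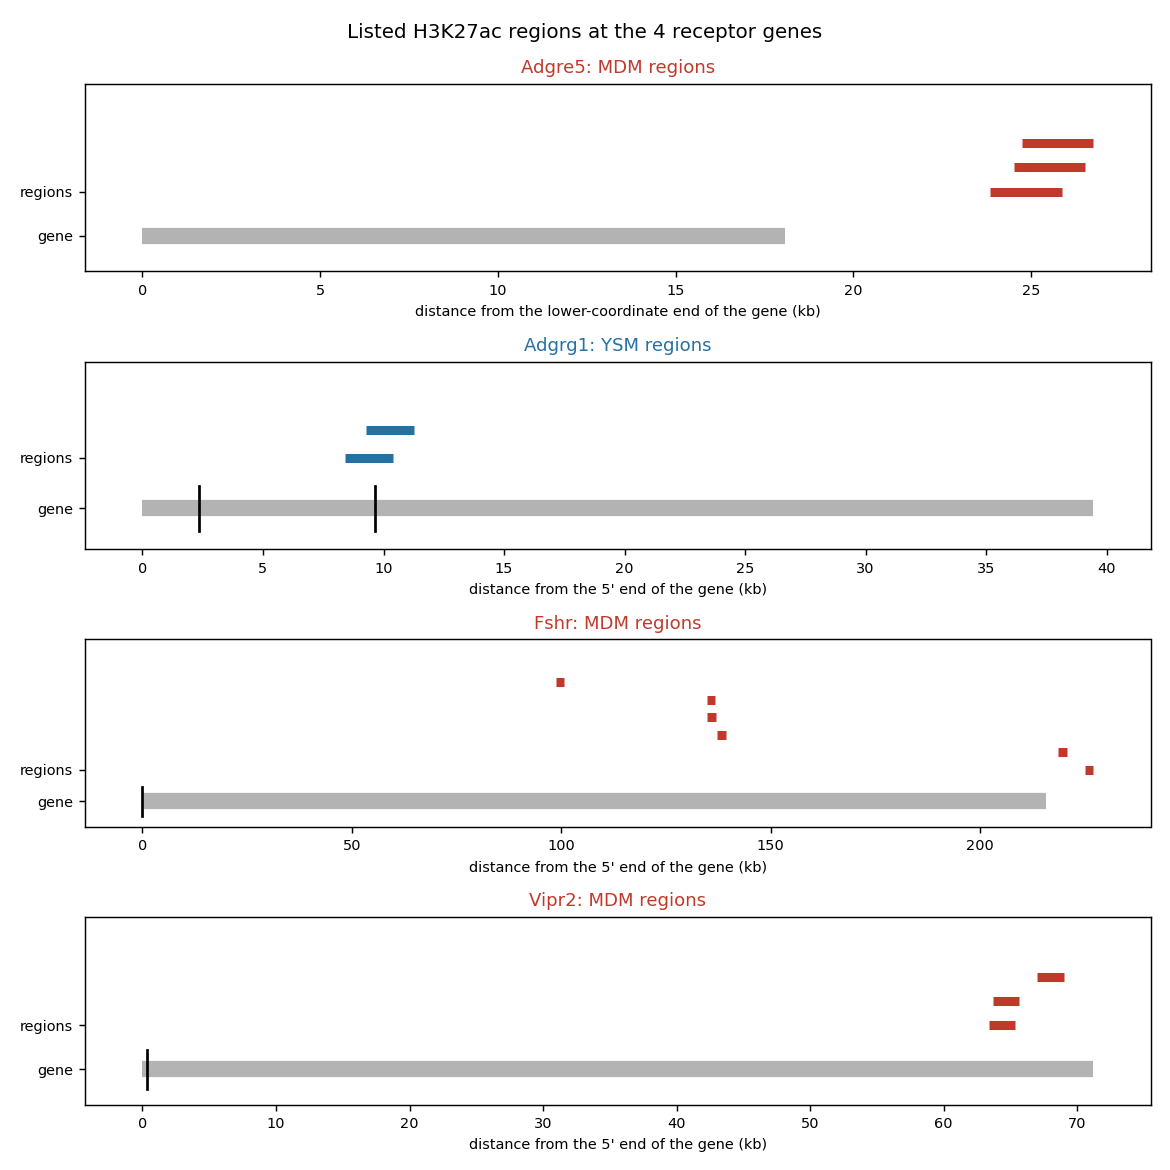
Map of the 14 listed regions at the 4 receptor genes, 1 panel per gene. The horizontal axis is the distance in kb from the 5' end of the gene, or for Adgre5 from its lower-coordinate end. Grey bars are gene bodies, black ticks are annotated starts, red bars are MDM regions and blue bars are YSM regions, stacked so that overlaps can be seen. The Adgrg1 regions lie over its second start, while the regions of Fshr and Vipr2 lie over 50 kb from the starts of those genes.

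Adgrg1 was the only one of the 4 with a listed region over an annotated start of its own. The gene runs from chr8:94974756-95014208 (mm10, plus strand, 39.5 kb). RefSeq gives it a start at 94977109 and another inside the gene at 94984399. The YSM regions at chr8:94983144-94985144 and chr8:94984011-94986011 overlap each other, with midpoints 867 bp apart, and the internal start lies in both. The first midpoint was 0.255 kb before that start and the second 0.612 kb after it. The other start was covered by 0 regions and lay 7.04 kb from the nearer midpoint.

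The sequences before these starts are shown because 1 of them lies in the YSM regions and the other does not. They are the 250 bases before each start, from RefSeq (GRCm38.p6, the assembly of mm10), 5′ to 3′ on the plus strand, and capitals mark every match to a searched motif. The first lies at chr8:94976859-94977108 and the second at chr8:94984149-94984398.
Adgrg1 upstream start, not covered: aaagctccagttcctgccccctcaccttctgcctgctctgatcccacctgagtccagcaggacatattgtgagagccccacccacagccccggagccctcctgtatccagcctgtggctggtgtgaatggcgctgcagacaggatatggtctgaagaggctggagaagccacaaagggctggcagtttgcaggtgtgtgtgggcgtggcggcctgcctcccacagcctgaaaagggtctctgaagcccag
Adgrg1 internal start, covered by 2 YSM regions: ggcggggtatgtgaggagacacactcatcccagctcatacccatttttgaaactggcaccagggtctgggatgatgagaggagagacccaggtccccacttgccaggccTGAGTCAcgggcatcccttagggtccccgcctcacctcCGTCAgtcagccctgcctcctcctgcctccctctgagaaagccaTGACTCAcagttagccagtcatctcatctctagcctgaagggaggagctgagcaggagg

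The covered sequence held 2 matches to the AP-1 motif TGANTCA. They were TGAGTCA from 141 to 135 bases before the start and TGACTCA from 59 to 53 bases before it. AP-1 is a family of Fos and Jun dimers. Of 32851 promoter windows of this length in the table, 6.75% held at least 1 such match and 0.338% held 2 or more. The remaining match was CGTCA, from 103 to 99 bases before the start, which is TGACG on the other strand and part of the cyclic AMP response element TGACGTCA; 17.8% of windows held that part. The uncovered sequence held 0 matches to any motif searched. The others searched were GAGGAAGT for PU.1, TTGCNNAA for C/EBP, a pair of GAAA blocks 2 bases apart for IRF factors, GGGCGG for Sp and KLF factors, TATAAA and CCAAT. All were read on both strands, and TGACGTCA contains TGACG. Several motifs were searched in several windows, so the share of 0.338% does not measure how unusual the AP-1 pair is. The rest of the regions was not searched. A match is a string of letters in this window and shows no binding.

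The base composition of the windows differed little between the covered start and the uncovered one. The GC content was 59.2% before the internal start of Adgrg1 and 60.8% before the upstream start, and each held 4 CG pairs, beside a median of 52.4% and 6 pairs over all windows. The window of Vipr2 was richer, at 65.2% (percentile 83.0) with 13 CG pairs. It held 1 match, to GGGCGG, a string found in 32.7% of windows. The window of Fshr was poor in G and C, at 36.8% (percentile 6.74), with 4 CG pairs and 0 matches.

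A region over a start was not common in either list. In the YSM list 8.52% of regions held an annotated start of a protein-coding gene, and in the MDM list 9.35%. At the receptors these were 2 of 2 YSM regions, which are 1 overlapping group, and 0 of 12 MDM regions. Starts were matched for Adgrg1, Fshr and Vipr2. The promoter windows held no entry for Adgre5, so its start and strand were not available here. Whether its regions lie upstream or downstream was therefore not determined, but they lie wholly outside the gene and cover neither end. The count at the MDM genes stayed at 0 when starts within 1 kb of a region were included. Of 101 YSM genes with several annotated starts, 15 had at least 1 covered by their own region. In 6 of these, Adgrg1 included, the start farthest upstream was not covered. The corresponding MDM counts were 6 and 4, of 39 genes with several starts.

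**Figure D2:**
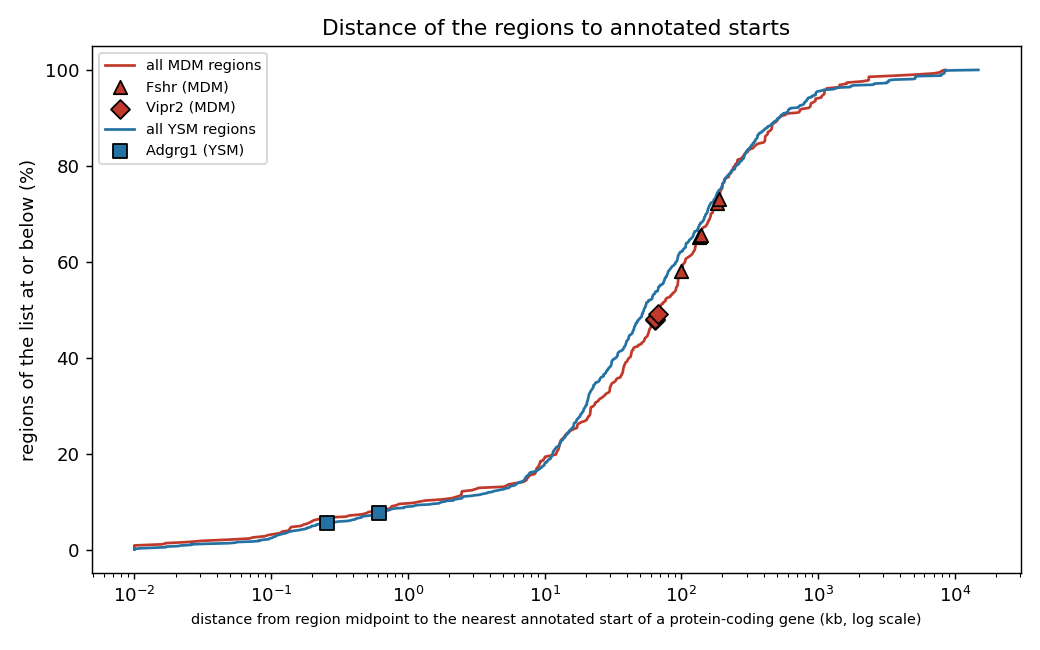
Cumulative share of regions by the distance from the region midpoint to the nearest annotated start of a protein-coding gene (kb, log scale; distances under 0.01 kb are drawn at 0.01). Lines are all regions of the MDM list (red) and the YSM list (blue), and symbols are the regions of Adgrg1, Fshr and Vipr2. The 2 Adgrg1 regions lie under 1 kb, at percentiles 5.46 and 7.6 of the YSM list. All regions of Fshr and Vipr2 lie beyond 50 kb, as do 57.3% of MDM regions with a value (median 69.0 kb). In the MDM list the Vipr2 regions stand at percentiles 47.7 to 48.9 and the Fshr regions at 57.8 to 72.9.

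Fshr held the most regions of the 4, spread over the largest stretch. The gene spans 215.7 kb at chr17:88984952-89200675 on the minus strand, longer than 95.9% of protein-coding genes, and its start lies at 89200675. Genes with MDM regions were long in general, with a median of 86.6 kb beside 17.2 kb over all protein-coding genes. From the start onwards, the first region was chr17:89100010-89102010, 99.7 kb into the gene. A group of 3 followed in chr17:89061419-89065975, with midpoints between 135.7 and 138.3 kb from the start. Its members were chr17:89061419-89063419, chr17:89063754-89065754 and chr17:89063975-89065975, of which the last 2 overlap. Beyond the 3' end lay chr17:88980012-88982012 and chr17:88973588-88975588, at 3.94 and 10.4 kb from that end. The pseudogene Marcksl1-ps2 (chr17:88982497-88983100) lies nearer to both, and with genes of all types Fshr had 4 regions instead of 6. The regions thus began near the middle of the gene, at 46.2% of its length, and ran past its 3' end, with 4 inside and 2 outside.

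Per length Fshr was not dense in regions, at 2.78 per 100 kb of gene, below Vipr2 (4.21), Adgrg1 (5.07) and Adgre5 (16.6). These ratios count regions lying outside the gene too. The regions of Fshr covered 10.2 kb of the 128.4 kb between the outermost edges. The gaps between its 3 groups were 34.0 and 79.4 kb. With only overlapping regions joined the groups numbered 5. The region nearest the start was also the member closest to the distance limit, 99.7 kb from the nearer gene end, and it lies inside the gene. The next member lay 80.0 kb from an end, and no region beyond 100 kb had one of the 4 genes at the nearest end.

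Vipr2 showed the opposite layout, a compact block near the 3' end. The gene spans 71.2 kb at chr12:116077420-116148637 on the plus strand, with a start at 116077726. Its regions were chr12:116140786-116142786, chr12:116141090-116143090 and chr12:116144395-116146395, all inside the gene. The midpoints lay between 64.1 and 67.7 kb from the start, at 90.4% to 95.4% of the gene length. The distance to the 3' end was 6.85, 6.55 and 3.24 kb. The first 2 overlap with midpoints 304 bp apart, and the last followed 3305 bp later, so that 1 group became 2 when only overlapping regions were joined.

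The Adgre5 regions formed a small block beyond the gene. Adgre5 spans 18.1 kb at chr8:83723245-83741311, and its 3 MDM regions were chr8:83747098-83749098, chr8:83747769-83749769 and chr8:83747996-83749996. Their midpoints lay 6.79, 7.46 and 7.68 kb beyond the higher-coordinate end. All 3 overlap, with steps of 671 and 227 bp between midpoints and a span of 2.9 kb in all, close to the 2.87 kb of the Adgrg1 pair. The long noncoding RNA gene Gm46046 (chr8:83741286-83745645) overlaps the higher-coordinate end of Adgre5. It extends from there towards these regions and ends 1.45 kb from the nearest. When genes of all types were allowed, the 3 regions had the end of Gm46046 as the nearest and Adgre5 had 0. The link to Adgre5 therefore holds only among protein-coding genes.

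Over the 4 genes, 9 of 14 regions had their midpoint inside the gene. By list these were 7 of 12 MDM regions and 2 of 2 YSM regions, beside 50.5% of all MDM and 62.1% of all YSM regions. The exons and introns under them were not separated here. The deposited score was 1 at all 14 regions, as at 421 of 428 MDM and 871 of 892 YSM regions, so it did not rank the receptors. Each region name closes with an integer that the sources do not explain. It was 4 at 7 of the 14, 1 at 6 and 3 at the remaining Fshr region.

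Fshr was near the upper end of its list by number of regions, and Adgrg1 was not. Of 232 genes with MDM regions 1 had more than Fshr and 1 other had as many. Adgre5 and Vipr2, with 3 each, were among 13 genes with that number, and 11 genes had more. Of 472 genes with YSM regions 79 had more than the 2 of Adgrg1, and 86 had 2. Counted in groups, 5 MDM genes had more groups than Fshr, 35 had more than Adgre5 or Vipr2, and 79 YSM genes had more than Adgrg1. The median was 1 region per gene in either list. These ranks describe genes picked for their regions.

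**Figure D3:**
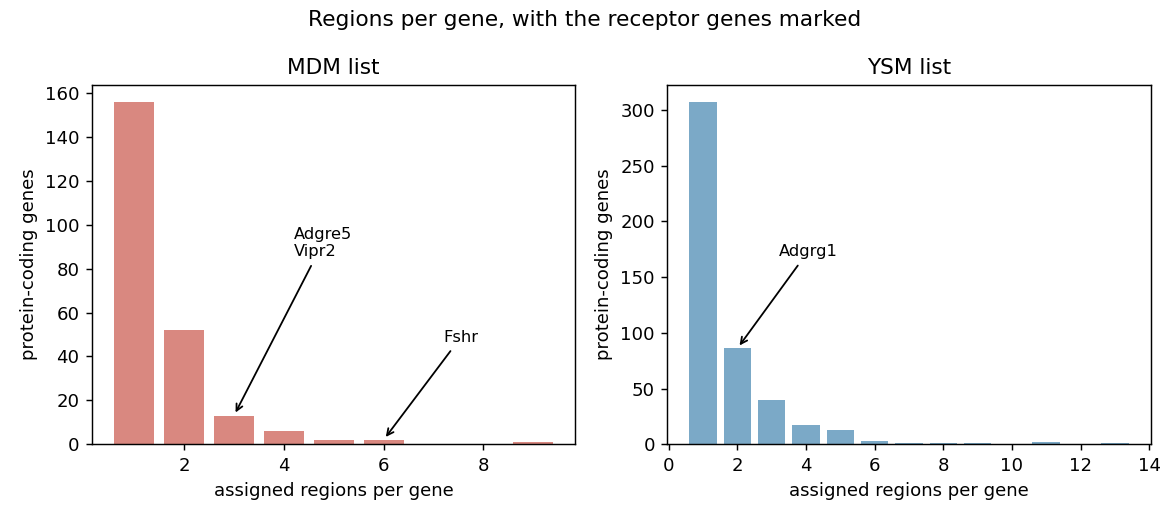
Number of protein-coding genes (vertical axis) by number of assigned regions (horizontal axis) in the MDM list (left, red) and the YSM list (right, blue). Arrows mark the receptor genes. Fshr stands at 6, near the upper end of the MDM list, Adgre5 and Vipr2 at 3, and Adgrg1 at 2.

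Genes with the most similar layout were taken as those of the same list with equal numbers of regions, groups and regions inside the gene, ordered by the distance of the nearest region to a gene end. No gene matched Fshr. Vipr2 had 2 matches, Cngb1, a subunit of a cyclic nucleotide-gated channel (12.3 kb from an end, against 3.24 kb at Vipr2), and Cobll1 (68.2 kb). Adgre5 also had 2, the spliceosome-associated Cwc27 (19.8 kb) and Ercc6l2 (91.5 kb). Adgrg1 had 40, the nearest being Nbeal2 (9.24 kb), Fam53a (8.49 kb) and the lysophosphatidylcholine acyltransferase gene Lpcat1 (10.6 kb).

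Receptors of the same family lie beside 3 of the 4 genes, and none of these neighbours had an assigned region in either list. Adgrg1 sits between the adhesion GPCR genes Adgrg5 and Adgrg3, which lie 31.5 and 2.9 kb from it and 39.9 and 31.1 kb from its regions. The next protein-coding gene above Adgre5 is Adgrl1, an adhesion GPCR of the latrophilin group, 150.1 kb from the Adgre5 regions. Below Adgre5, Ddx39a, an RNA helicase gene, overlaps the gene itself. The prostaglandin receptor gene Ptger1 lies 74.3 kb from the regions. Below Fshr the next gene is Lhcgr, the receptor for luteinizing hormone, 181.5 kb from the nearest Fshr region. Vipr2 lies between the zinc finger gene Zfp386 and the cilia gene Wdr60, 14.2 and 57.6 kb away.

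The loci also differed in how far away the next listed region lay. Adgrg1 was the YSM gene among the 4, yet the listed region closest to it was an MDM region. This MDM region, inside Cngb1 at chr8:95292486-95294486, belongs to a group of 3 and lay 308.5 kb away by midpoints, while the closest other YSM region lay 4011.1 kb away. Such an order, with the opposite list nearer, was seen at 126 of 472 YSM genes (26.7%). The distance from Adgrg1 to the opposite list was below that of all but 3.18% of YSM genes on this measure. The comparison was chosen after its values were seen.

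The MDM receptors stood in different surroundings. Vipr2 lay close to other MDM regions, with 1 in the immunoglobulin heavy chain locus (Igh) 267.5 kb below and 1 at the condensin gene Ncapg2 315.2 kb above. The median distance to another region of the same list was 2758.2 kb over MDM genes. Fshr and Adgre5 lay farther, at 4355.1 and 4919.8 kb from the next MDM region, at Plekhh2 and Nod2. These distances were at percentiles 62.9 and 66.4 of MDM genes, so neither gene was unusually isolated. For both of these genes the nearest region outside the locus was a YSM region, 1634.1 kb from Fshr at Ttc7 and 2873.8 kb from Adgre5 at Gab1, and the same order held at 51.7% of MDM genes.

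Some other GPCR genes had MDM regions and others had YSM regions. Of 135 GPCR genes in 5 lists, 6 had MDM regions and 3 had YSM regions, the chosen receptors included. Without the 4 receptors these were 3 of 131 (2.29%) for MDM and 2 of 131 (1.53%) for YSM, beside 1.06% and 2.16% of all protein-coding genes. The lists were not chosen independently of these data, and no test was made.

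Among 30 adhesion GPCRs, the other genes with regions were both latrophilins in the MDM list. Without the chosen Adgre5 and Adgrg1, these were 2 of 28 (7.14%) for MDM and 0 of 28 for YSM. The shares of all protein-coding genes were 1.06% and 2.16%. Latrophilins bind teneurins and FLRT proteins at cell contacts. Adgrl2 had 2 MDM regions in 1 group inside the gene, the nearest 1.08 kb from a gene end (chr3:148987011-148989011), and Adgrl3 had 1 inside the gene (chr5:81036241-81038241). In the YSM list Adgrg1 was the only adhesion GPCR. Of 15 secretin-family receptors Vipr2 alone had regions, so the related VIP receptor gene Vipr1 and the PACAP receptor gene Adcyap1r1 had none. Vipr2 was chosen for its regions, and without it 0 of 14 had one in either list.

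Of 8 leucine-rich repeat receptors 1 had MDM regions and 2 had YSM regions, the chosen Fshr included. Without Fshr these were 0 of 7 for MDM and 2 of 7 (28.6%) for YSM. The shares of all protein-coding genes were 1.06% and 2.16%, and no test was made. Fshr had MDM regions, while Lgr5, a receptor for R-spondins, and the relaxin receptor gene Rxfp1 had 1 YSM region each, inside the gene at 56.9 and 47.5 kb from an end (chr10:115529889-115531889 and chr3:79689438-79691438). The hormone receptor genes Lhcgr and Tshr had none. Of 50 receptors for purines, lipids and metabolites the lysophosphatidic acid receptor gene Lpar1 had 1 MDM region (chr4:58505947-58507947). None of 32 chemokine and chemoattractant receptors had a region in either list, among them Cx3cr1 and Ccr2, used to tell microglia from monocytes. With MDM regions at 1.06% and YSM regions at 2.16% of all protein-coding genes, nothing is read from their absence. Genes absent from the lists may carry the mark equally in both groups or may not carry it at all, since the lists do not separate these cases.

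**Figure D4:**
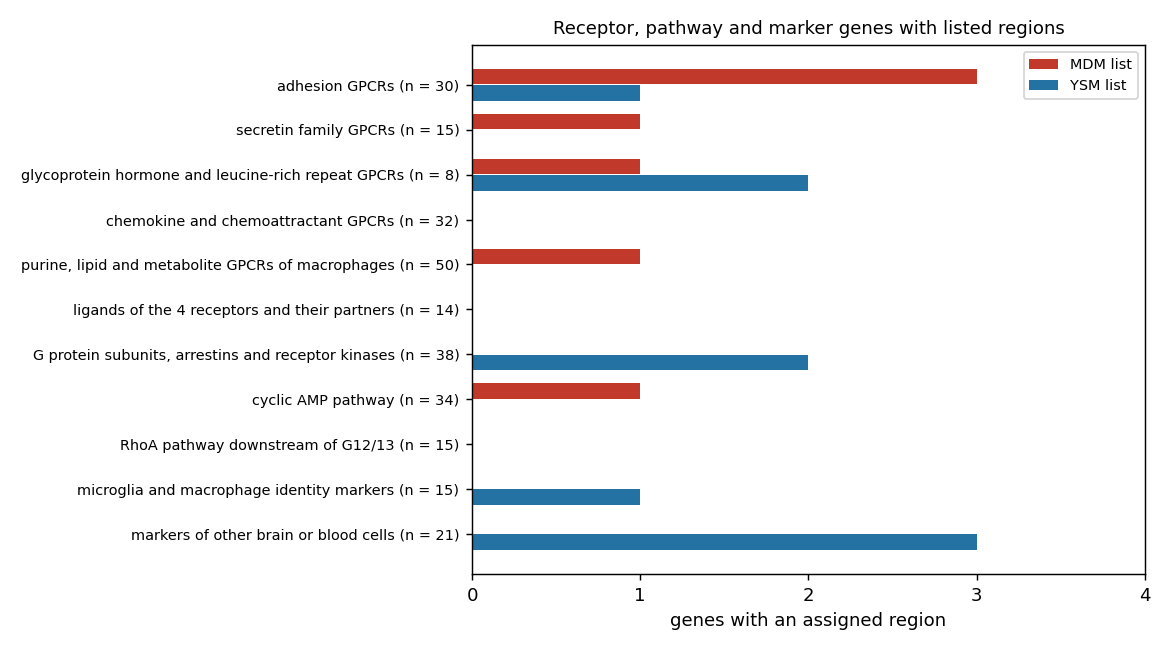
Number of genes with an assigned region (horizontal axis) in each list of receptor, pathway and marker genes, with the number of genes of each list in brackets. Red bars are the MDM list and blue bars the YSM list. The adhesion GPCRs reach 3 genes for MDM and 1 for YSM, and the chemokine receptors stand at 0.

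Genes acting with the receptors were listed at about the share of all genes. Of 101 ligand, G protein and pathway genes 1 had an MDM region (0.99%, beside 1.06% of all protein-coding genes) and 2 had YSM regions (1.98%, beside 2.16%). None of 14 ligands and binding partners had one, which includes Cd55, Vip, Adcyap1, Fshb, Cga, Col3a1 and Tgm2. Among 38 G protein subunits, arrestins and receptor kinases, the gamma subunit genes Gng4 (chr13:13787154-13789154, 4.09 kb from an end) and Gng12 (chr6:66963497-66965497, 56.9 kb) had 1 YSM region each. Of 34 genes of the cyclic AMP pathway Pde7b, a phosphodiesterase that degrades cyclic AMP, had 1 MDM region inside the gene (chr10:20504603-20506603). None of 15 genes of the RhoA pathway had a region.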

How the data were processed

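H3K27ac CUT&Tag libraries of 4 MDM and 4 YSM samples stand behind the data, and 1 further library of each group was not analysed here; its name gives H3K27me3, whereas the series text names an H3K4me3 antibody. The submitters' processing notes name Trimmomatic 0.39, HOMER, Picard and Bowtie2 2.2.5 without their roles, and build mm10. The authors deposited 2 lists of regions with start, end, name and a score, a whole number of unstated meaning; the file names mention DESeq2, and its threshold and direction are not stated there. Values of single libraries were not used here, so no test between samples was run.

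Positions are counted from 1. Genes (21887 protein-coding) came from the RefSeq table of GRCm38.p6, and annotated starts from RefSeq promoter windows, available for 17492 of them. A region went to every gene holding its midpoint and to the gene with the nearest end within 100 kb. For these sequences the 250 bases before each start were searched. Of 273 list entries 272 matched a gene. The members, gene lists and alternatives were chosen with earlier results of these data known. Named genes were the 4 receptors, listed genes with a region, direct neighbours and up to 3 genes of the same layout; other neighbours, the genes at the next regions and those named as having no region were chosen after values were seen. The assignment, joining and motif code (Python 3.11.15, pandas 2.3.3) was tested on simulated data. Alternatives were other distance limits, gene sets, joining gaps and definitions of inside; starts within 1 kb and a window running 50 bases past the start were added after seeing the data. Some neighbouring genes are not reported here.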

Additional observations from a re-analysis of the deposited data

How the results depend on the processing

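No paired analysis was possible because each list pools its group. Likewise, leaving out a library or raising the threshold was not run. Recomputing 25 values under the alternatives gave 72 values, of which 67 were within 1.5 times the main value and 5 were not. Changes of exactly 1.5 times counted as within, such as Fshr from 6 regions to 4 and all groups from 6 to 9. Of the 14 regions 9 lie inside a gene and stay assigned at any distance limit, so the limits could move few counts. With genes of all types, Adgre5 fell from 3 regions to 0 and the 4 receptors together from 14 to 9, because noncoding genes and pseudogenes lie nearer to those regions. When only overlapping regions were joined, the groups numbered 5 at Fshr and 2 at Vipr2, in place of 3 and 1. With no distance limit the pathway genes with MDM regions numbered 2 in place of 1. The regions at each receptor and the number inside the gene stayed within that margin under all other limits and definitions of place. Distances are to annotated ends and starts, the table of starts does not cover every gene, and a nearest gene need not be the gene that a region acts on. Read depth is unknown.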
